A study of Rattus norvegicus with 6 samples.

Results

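The genes of cholesterol synthesis, uptake and efflux were examined by RNA sequencing of primary vascular smooth muscle cells from rats, which contract the wall of arteries. The members are 33 genes picked by name, and 31 of them were found by symbol among the 30945 genes of the count files and all 31 had enough counts to be tested. The 2 others, Fdps and Nsdhl, were not analysed under these symbols. The members were read as 3 sets: 19 enzymes of synthesis (17 found), 8 genes of feedback control, uptake, movement and storage, and 6 receptor and efflux genes. There were 3 libraries labelled Negative_control and 3 labelled siRNA_ANK, for an siRNA against ANK. The labels name no other genetic change or treatment in either group, and neither the strain, the age of the animals, the siRNA dose nor the time after transfection is given in the sources used here. Since no label ties a replicate to its own animal or culture, p-values reflect the spread of these libraries alone, and that spread may be technical.

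Cells obtain cholesterol by making it from acetyl-CoA through mevalonate and squalene, or by taking up lipoproteins. When membranes of the endoplasmic reticulum hold little sterol, the escort protein SCAP carries the transcription factor SREBP to the Golgi, where proteases release its active part, and this raises the genes of the synthesis enzymes; INSIG proteins hold SCAP back when sterol is plentiful. Oxysterols, which form when sterol is plentiful, activate the LXR receptors and so raise the exporters ABCA1 and ABCG1. In smooth muscle of diseased arteries, cholesterol loading through this balance is known for the formation of foam cells.

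Library totals ranged from 15641259 to 17441548 counts. Ankh, which encodes the ANK protein, was at 338, 351 and 367 CPM (TMM-scaled counts relative to the library total) in the controls and at 84.9, 76.7 and 119.6 CPM in siRNA_ANK, and the groups did not overlap. The log2 fold change was -1.91 ± 0.16 (SE, edgeR adjusted p = 0.000180), so the siRNA_ANK cells held 26.6% of the control level. All 9 smooth muscle markers were expressed, with a summed level of 2710.1 to 3774 CPM in the controls and 5387 to 6483 CPM in siRNA_ANK. Of the 9, 8 were called higher in siRNA_ANK, where 19.9% of all genes tested were. Of 11 macrophage markers, 6 had no count in any library (Adgre1, Cd163, Fcgr3a, Itgam, Ptprc and Tyrobp), and the summed level was 24.9 to 28.1 CPM in the controls and 11.3 to 14.9 CPM in siRNA_ANK, most of it Cd14, which was called lower. Of 8 endothelial markers, 4 had no count in any library (Cdh5, Emcn, Kdr and Tie1), and the summed level was 10.8 to 14.3 CPM in the controls and 6.47 to 8.29 CPM in siRNA_ANK. Most of it was Egfl7, which was lower in siRNA_ANK (edgeR adjusted p = 0.000254). Of 5 adipocyte markers, Adipoq, Fabp4 and Lep had no count, and the summed level of the list reached at most 0.125 CPM for a control and 0.180 CPM for a siRNA_ANK library. The part of these marker differences in the results that follow was not tested.

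Synthesis enzymes were mostly higher in siRNA_ANK, and the exporter genes were lower. Of the 31 members 18 were called, where 40.1% of all genes tested were. Of the 17 synthesis enzymes, 11 rose and 1 fell, where 19.9% of the 13016 genes tested rose and 20.2% fell. The median log2 fold change of the 17 was 0.33, against 0.01 over all genes tested. Of the 6 receptor and efflux genes, 3 fell and 0 rose, with a median log2 fold change of -0.83. In the set of control, uptake and storage genes, 3 of 8 fell and 0 rose, with a median of -0.18. All siRNA_ANK libraries lay above all controls for 12 of the 31 members and below them for 8, where 25.7% and 25.4% of all genes tested did so. Changes of at least 2-fold were found for Hmgcs1, Idi1 and Dhcr7 upward and for Abca1, Abcg1 and Arl4c downward, where 4.56% of all genes tested rose and 2.58% fell that far. Calls are edgeR quasi-likelihood tests at an adjusted p under 0.05. In bulk RNA, a change in the number of cells of a kind and a change in RNA per cell cannot be told apart.

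**Figure D1:**
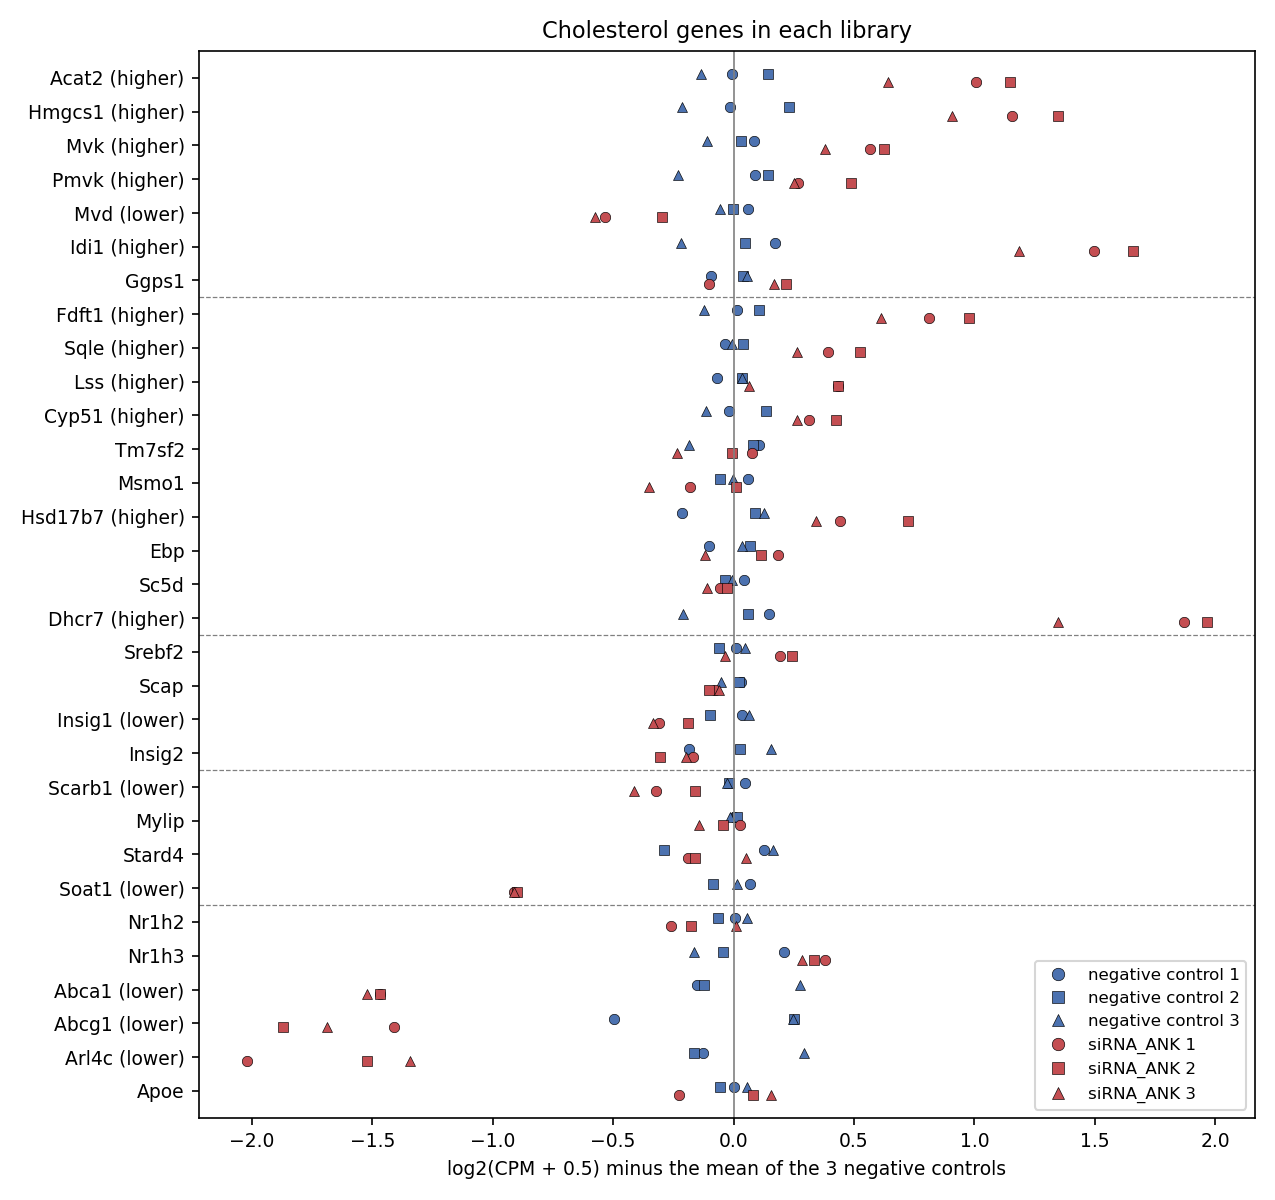
Each of the 31 members in each of the 6 libraries, as log2(CPM + 0.5) minus the mean of the 3 negative controls. Blue marks are controls and red marks siRNA_ANK, shapes are replicates, dashed lines part the groups of genes, and genes called at an adjusted p under 0.05 are marked; Idi1 and Dhcr7 lie furthest to the right and Abcg1 and Arl4c furthest to the left.

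The difference between the sets was present in each siRNA_ANK library. Against the control mean, the median of the synthesis enzymes stood at 0.39, 0.49 and 0.26 on the log2 scale for the siRNA_ANK libraries and at 0.01, 0.06 and -0.11 for the controls, each in the order of replicates 1 to 3. The median of the receptor and efflux genes was -0.83, -0.82 and -0.67 in siRNA_ANK, and -0.06, -0.06 and 0.15 in the controls. The medians of all genes tested were 0.01 in each of the siRNA_ANK libraries.

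In the mevalonate and isoprenoid steps, which build the carbon units of sterols, 5 of 7 genes rose and Mvd fell, where 19.9% and 20.2% of all genes tested did. Acat2, the cytosolic thiolase that joins acetyl-CoA units, measured 59.1, 65.6 and 54.0 CPM in the controls. In siRNA_ANK it measured 119.8, 132 and 92.8 CPM. All siRNA_ANK values lay above the controls, and the level rose 1.93-fold (log2 fold change 0.95 ± 0.13, edgeR adjusted p = 0.000768). Hmgcs1, the synthase that makes HMG-CoA for this route (chromosome 2, 51649497 to 51667100, plus strand, build mRatBN7.2), was at 66.1, 78.3 and 57.5 CPM in the controls and at 149, 171 and 126 CPM in siRNA_ANK. It rose 2.21-fold (log2 fold change 1.14 ± 0.14, adjusted p = 0.000711 by edgeR) with no overlap. Idi1, the isomerase that makes the activated isoprene unit (chromosome 17, 61629594 to 61637357, minus strand), stood at 28.0, 25.6 and 21.2 CPM against 70.8, 79.2 and 56.9 CPM. This 2.77-fold rise (log2 fold change 1.47 ± 0.13, edgeR adjusted p = 2.06e-05) was the largest among the 7 genes. Reads of the opposite-strand gene Wdr37, which overlaps Idi1, cannot be told from its own without a strand setting. The row of Wdr37 had counts equal to 33.6% of those of Idi1 and, at 16.4 ± 1.45 and 14.9 ± 1.84 CPM (SD, n = 3), was not called. That row covers all of Wdr37 and not the shared stretch alone, and the part of the overlap in the Idi1 counts was not tested.

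The kinase genes of the route rose less. Mvk was at 21.7, 20.8 and 18.9 CPM in the controls and at 30.5, 31.7 and 26.7 CPM in siRNA_ANK, a 1.45-fold rise (adjusted p = 0.000314 by edgeR). Pmvk, the kinase after it, was at 21.9, 22.7 and 17.4 CPM against 24.8, 29.0 and 24.6 CPM. The Pmvk groups did not overlap and the change was 1.26-fold (edgeR adjusted p = 0.0224), but the gene fell short of the threshold when control replicate 3 (adjusted p = 0.118) or siRNA_ANK replicate 2 (adjusted p = 0.103) was left out (with a range of 0.00108 to 0.118 over the alternatives). Mvd, the decarboxylase that follows these kinases, went the other way, from 61.3, 58.6 and 56.5 CPM to 40.5, 47.7 and 39.3 CPM. Every siRNA_ANK value of Mvd lay below every control value, and the log2 fold change was -0.47 ± 0.08 (edgeR adjusted p = 0.000274). Ggps1, which makes geranylgeranyl diphosphate for protein prenylation on a side branch, had overlapping groups at 15.8 ± 0.891 and 16.9 ± 2.01 CPM (log2 fold change 0.10 ± 0.11, adjusted p = 0.485 by edgeR).

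In the steps from squalene to cholesterol, 6 of 10 genes rose and 0 fell, where 19.9% and 20.2% of all genes tested did. Fdft1, squalene synthase, was at 86.7, 92.5 and 78.8 CPM in the controls and at 151, 169.6 and 132 CPM in siRNA_ANK, with no overlap. Its log2 fold change was 0.81 ± 0.09 (edgeR adjusted p = 2.71e-05). Sqle, the epoxidase that acts next, was at 127, 134 and 129.9 CPM against 171, 188 and 157 CPM, a smaller rise of 1.32-fold (adjusted p = 0.000233 by edgeR). Lss, which closes the sterol rings, was at 78.6, 84.6 and 84.4 CPM in the controls and at 112, 112 and 86.3 CPM in siRNA_ANK, so that siRNA_ANK replicate 3 lay just above the controls. Its call (edgeR adjusted p = 0.0137) did not hold when control replicate 1 (adjusted p = 0.0610) or siRNA_ANK replicate 1 (0.0645) was left out (range over the alternatives 3.11e-08 to 0.0645). Cyp51, lanosterol demethylase and the most abundant of the synthesis enzymes per length, was at 442, 492 and 415 CPM against 558, 603 and 539 CPM (1.26-fold higher, edgeR adjusted p = 0.00120).

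Dhcr7, a reductase that makes cholesterol from its last precursor, rose the most of all members. Dhcr7 (chromosome 1, 199015081 to 199031055, plus strand) was at 9.51, 8.93 and 7.31 CPM in the controls and at 32.5, 34.7 and 22.5 CPM in siRNA_ANK. The groups were far apart, with a 3.49-fold rise (log2 fold change 1.80 ± 0.17, edgeR adjusted p = 1.35e-05). Hsd17b7, a ketosteroid reductase of the route, was at 3.54, 4.49 and 4.62 CPM against 5.88, 7.25 and 5.44 CPM (edgeR adjusted p = 0.0221). It missed the threshold when control replicate 1 (adjusted p = 0.1076) or siRNA_ANK replicate 2 (0.1105) was left out (range 0.00765 to 0.1105). A gene without a symbol on the opposite strand, whose description also names Hsd17b7, spans all of Hsd17b7. The row of that gene had counts equal to 28.1% of those of Hsd17b7. It rose too (log2 fold change 1.03 ± 0.29, edgeR adjusted p = 0.0111). Without a strand setting, reads of both genes cannot be told apart where they overlap. The part of the overlap in the Hsd17b7 counts and in its rise was not tested. The 4 other enzymes had overlapping groups and did not pass the threshold. Msmo1, the methylsterol monooxygenase, was at 231 ± 9.40 and 206 ± 26.0 CPM (log2 fold change -0.17 ± 0.08, edgeR adjusted p = 0.112), and was called lower without siRNA_ANK replicate 2 (log2 fold change -0.27, adjusted p = 0.00762, range 0.00762 to 0.291). Sc5d, a desaturase, was at 95.9 ± 2.60 and 91.7 ± 2.58 CPM, the reductase Tm7sf2 at 37.5 ± 4.06 and 36.1 ± 3.98 CPM, and the isomerase Ebp at 12.4 ± 0.811 and 13.0 ± 1.46 CPM. A row that carries an identifier in place of a symbol (ENSRNOG00000057814) has a protein description that names Nsdhl. It is outside the rule and is named here with its values already known: 41.3 ± 3.76 and 55.2 ± 9.45 CPM, with a log2 fold change of 0.42 ± 0.12 (edgeR adjusted p = 0.0162).

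**Figure D2:**
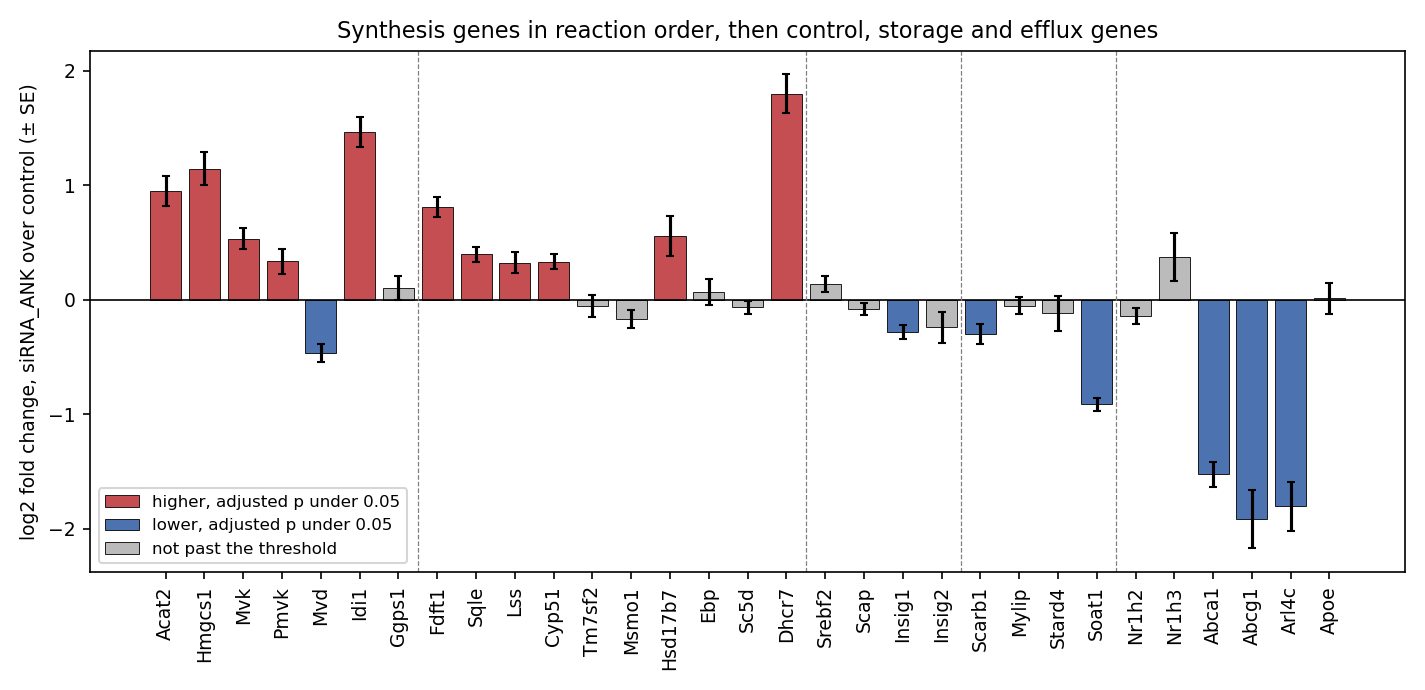
Log2 fold change of siRNA_ANK over negative control for the 31 members with its SE (3 libraries a group), with the synthesis genes in reaction order at the left. Red and blue bars are genes called higher and lower at an edgeR adjusted p under 0.05 and grey bars are genes not past it; the rises peak at Idi1 and Dhcr7, Mvd is the blue bar among the synthesis genes, and Abca1, Abcg1 and Arl4c are the deepest falls.

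The windows before the start sites of 5 of these genes are shown because Idi1, Dhcr7 and Mvk rose while Mvd, from the same route, and the exporter gene Abca1 fell. They come from RefSeq on the build GRCr8, which is not the build of the counts. The positions are Idi1 at chr17:66547525-66547774 (- strand), Dhcr7 at chr1:208444184-208444433 (+ strand), Mvk at chr12:47819504-47819753 (- strand), Mvd at chr19:67414975-67415224 (- strand) and Abca1 at chr5:72596564-72596723 (- strand). For Abca1 the 90 bases nearest to the start site are left out because they lie within the annotated span of the gene. Each is written 5′ to 3′ on the strand of the gene, and capitals mark a CCAAT box (CCAAT), a GC box (GGGCGG) or an E-box (CACGTG), on either strand.
Idi1: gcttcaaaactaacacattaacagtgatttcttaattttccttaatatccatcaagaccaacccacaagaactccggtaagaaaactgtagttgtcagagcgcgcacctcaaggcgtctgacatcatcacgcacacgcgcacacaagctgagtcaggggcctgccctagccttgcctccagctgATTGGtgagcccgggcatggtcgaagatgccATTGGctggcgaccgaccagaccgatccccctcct
Dhcr7: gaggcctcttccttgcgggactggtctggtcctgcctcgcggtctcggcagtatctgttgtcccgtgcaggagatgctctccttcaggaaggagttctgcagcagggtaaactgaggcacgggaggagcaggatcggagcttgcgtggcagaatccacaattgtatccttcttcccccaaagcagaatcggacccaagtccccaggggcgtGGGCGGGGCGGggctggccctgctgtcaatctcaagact
Mvk: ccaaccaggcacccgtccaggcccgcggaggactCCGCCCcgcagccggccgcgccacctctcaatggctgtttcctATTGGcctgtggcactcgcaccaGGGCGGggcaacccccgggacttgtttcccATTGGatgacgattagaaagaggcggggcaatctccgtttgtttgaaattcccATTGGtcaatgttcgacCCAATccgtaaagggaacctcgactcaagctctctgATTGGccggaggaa
Mvd: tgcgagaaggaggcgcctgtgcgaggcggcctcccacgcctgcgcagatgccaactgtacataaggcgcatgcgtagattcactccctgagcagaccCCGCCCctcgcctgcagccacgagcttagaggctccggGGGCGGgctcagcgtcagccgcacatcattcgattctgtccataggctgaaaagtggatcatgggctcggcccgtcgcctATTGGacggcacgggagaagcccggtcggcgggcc
Abca1: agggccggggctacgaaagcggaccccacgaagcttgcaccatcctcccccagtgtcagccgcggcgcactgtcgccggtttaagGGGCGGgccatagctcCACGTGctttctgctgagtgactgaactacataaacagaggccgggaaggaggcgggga

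CCAAT boxes, which the factor NF-Y binds, stood 66 and 35 bases before the start of Idi1, both on the reverse strand, and 35 bases before that of Mvd. Mvk had 5 of them, and the printed windows of Dhcr7 and Abca1 had none. In Dhcr7 the capitals are 2 GC boxes that share 1 base, and in Abca1 a GC box and an E-box. Windows of 250 bases were found for 27 of the 33 members. The synthesis genes with a window include Fdps and Nsdhl, whose counts were not analysed under these symbols. A CCAAT box was found in 13 of the 16 synthesis genes with a window, in 5 of the 8 that rose, in 6 of the 11 other members, and in 34% of all 33469 RefSeq windows. A member was counted if any of its windows held the motif, whereas the share of all windows counts each window, so the shares are not on the same footing. Mvk and Mvd each had 2 GC boxes as well. A GC box was found in 13 of the 16 synthesis genes, in 7 of the 8 that rose, in 8 of the 11 other members, and in 30.5% of all windows. The E-box was in 5.59% of all windows and in 1 of the 16 synthesis genes, Sc5d, and in 3 of the 11 other members, Abca1, Insig1 and Scap. The sterol regulatory element written as TCACNCCAC was in 0.974% of all windows and in 0 of the 27 members' windows. A match is a stretch of letters and not a measured binding site, and a missing match concerns these windows and letters.

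Of the 4 genes that control SREBP, Insig1 fell and the others did not pass the threshold. Srebf2, which encodes the SREBP form that drives sterol synthesis, was at 119.5, 114 and 122.8 CPM in the controls and at 136, 140.5 and 116 CPM in siRNA_ANK, with overlap through siRNA_ANK replicate 3 (log2 fold change 0.14 ± 0.07, edgeR adjusted p = 0.133). Without that library it was called higher (log2 fold change 0.22, adjusted p = 0.00136, range over the alternatives 0.00136 to 0.427). Scap was at 102, 101 and 95.9 CPM against 94.2, 92.5 and 95.2 CPM (adjusted p = 0.255 by edgeR), without overlap. Insig1, itself a known SREBP target that holds SCAP in the endoplasmic reticulum, was at 464, 424 and 474 CPM in the controls and at 366, 397 and 360 CPM in siRNA_ANK. The Insig1 groups did not overlap, and its log2 fold change was -0.28 ± 0.06 (edgeR adjusted p = 0.00202). The sign was opposite to that of the 11 synthesis enzymes that rose, and the part of SREBP in these changes was not tested. Insig2, which shares the role of Insig1, was low at 9.13 ± 1.13 and 7.71 ± 0.411 CPM and did not pass the threshold. The row of the microRNA Mir33, which lies within Srebf2 on the same strand, had 0 counts in each library. Reads there cannot be told from those of Srebf2, so the level of the microRNA cannot be read from this row.

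Among the genes of uptake, movement and storage, the storage enzyme changed the most. Soat1, which esterifies cholesterol for lipid droplets (chromosome 13, 68552317 to 68597494, minus strand), was at 168, 151 and 162 CPM in the controls and at 85.0, 85.7 and 84.9 CPM in siRNA_ANK. The siRNA_ANK values were close to each other and far below the controls, with a log2 fold change of -0.91 ± 0.06 (edgeR adjusted p = 2.63e-08) or 53.2% of the control level. Scarb1, a receptor that exchanges cholesterol with high-density lipoprotein, was at 28.7, 27.4 and 27.2 CPM against 22.1, 24.8 and 20.7 CPM (edgeR adjusted p = 0.0125). Without control replicate 1 it was no longer called (adjusted p = 0.0584, range 0.00530 to 0.0584). Mylip, an LXR target and a ubiquitin ligase for lipoprotein receptors, was at 35.2 ± 0.371 and 33.9 ± 2.04 CPM (log2 fold change -0.05 ± 0.07, edgeR adjusted p = 0.604). Stard4, a cytosolic sterol carrier, was at 8.51 ± 1.49 and 7.85 ± 0.776 CPM, and its groups overlapped too.

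The exporter genes fell while the receptors that control them did not pass the threshold. Abca1, which loads cholesterol onto apolipoprotein A-I (chromosome 5, 67681297 to 67801170, minus strand), was at 47.8, 48.8 and 64.4 CPM in the controls and at 18.9, 18.9 and 18.2 CPM in siRNA_ANK. The siRNA_ANK values lay within 1 CPM of each other and below every control, 2.88-fold lower (log2 fold change -1.52 ± 0.11, edgeR adjusted p = 3.47e-07). Abcg1, which exports cholesterol to high-density lipoprotein (chromosome 20, 9126687 to 9182948, plus strand), was at 4.84, 8.46 and 8.43 CPM against 2.34, 1.56 and 1.84 CPM. The control replicate 1 was lower than the other controls and still above the siRNA_ANK libraries, and the log2 fold change was -1.91 ± 0.25 (edgeR adjusted p = 3.53e-05). Arl4c, a small GTPase and LXR target (chromosome 9, 89298005 to 89304513, minus strand), was at 7.59, 7.37 and 10.3 CPM against 1.68, 2.58 and 2.98 CPM. All siRNA_ANK values lay below the controls, 3.50-fold lower on average (log2 fold change -1.80 ± 0.22, edgeR adjusted p = 1.39e-05). With these 3 genes lower, the largest log2 fold change upward in the set was 0.38.

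Nr1h2, which encodes LXR beta, was at 77.1, 73.4 and 79.8 CPM in the controls and at 64.0, 67.9 and 77.2 CPM in siRNA_ANK (log2 fold change -0.14 ± 0.07, edgeR adjusted p = 0.139). Replicate 3 overlapped the controls, and without siRNA_ANK replicate 3 the gene was called lower (log2 fold change -0.22, adjusted p = 0.00444, range 0.00101 to 0.450). Nr1h3, which encodes LXR alpha, was scarce, at 2.98, 2.42 and 2.19 CPM against 3.42, 3.29 and 3.17 CPM. Its groups did not overlap, yet the difference did not pass the threshold (log2 fold change 0.38 ± 0.21, edgeR adjusted p = 0.172). Apoe, the apolipoprotein that accepts exported lipid and another known LXR target, was at 8.65 ± 0.352 and 8.72 ± 1.25 CPM (log2 fold change 0.01 ± 0.14, edgeR adjusted p = 0.956). LXR targets among the members were uneven, with Abca1, Abcg1 and Arl4c lower and Mylip and Apoe without a call. The activity of LXR was not tested.

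**Figure D3:**
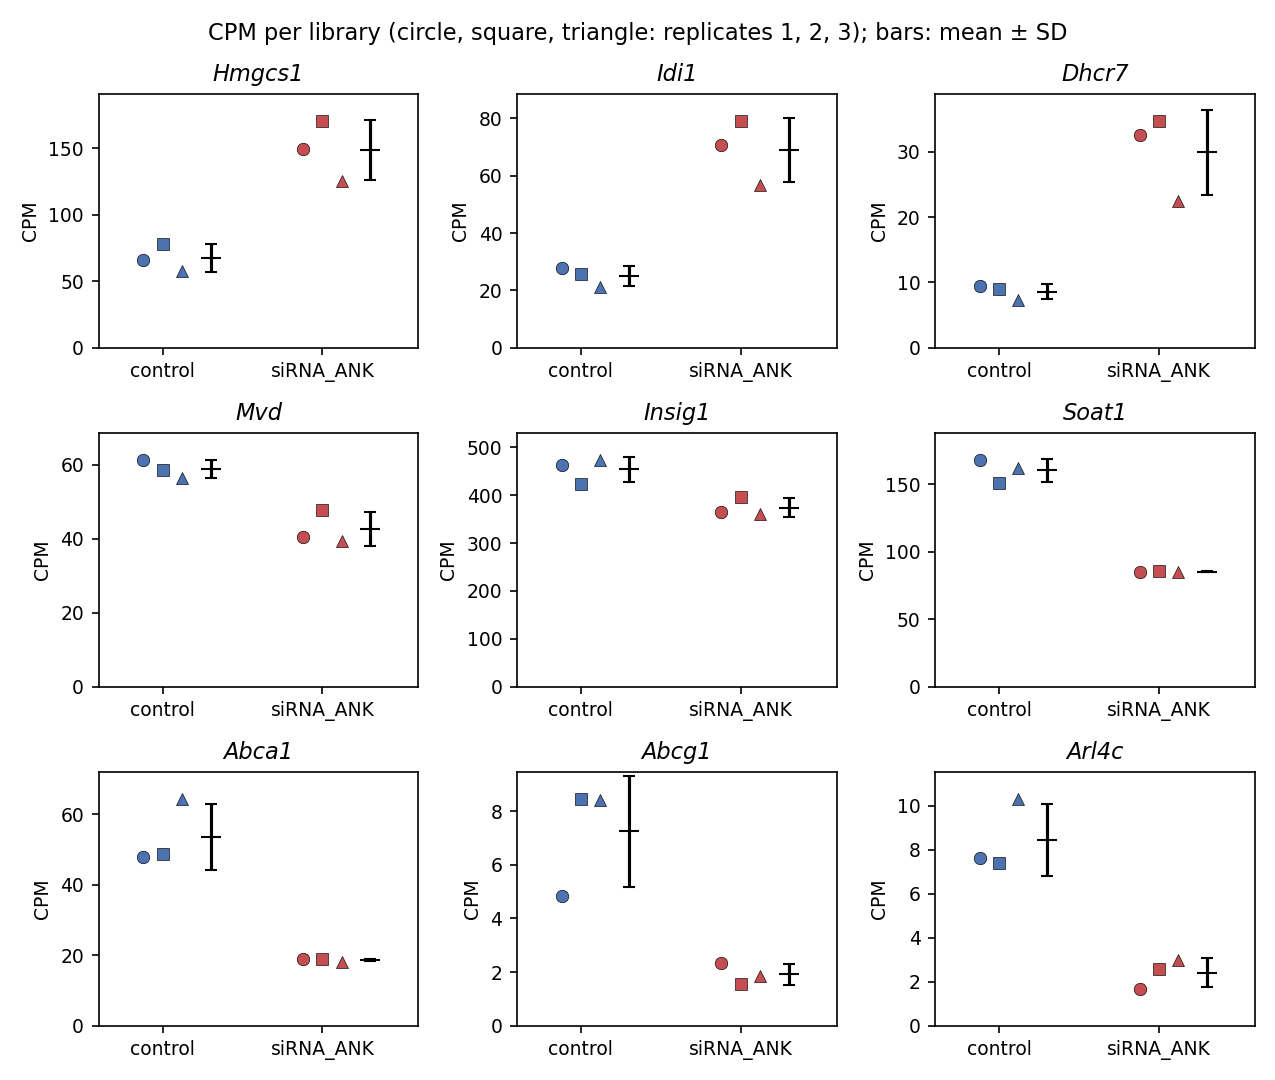
CPM of 9 members in each library, with axes from 0; circles, squares and triangles are replicates 1, 2 and 3 and the bars at the right of each group are the mean with its SD (n = 3). Blue controls and red siRNA_ANK libraries do not overlap in any of the 9 panels, and siRNA_ANK replicate 3 is the lowest red mark for Hmgcs1, Idi1 and Dhcr7.

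Per kilobase of gene length, the members spanned a wide range, and the order of the levels shifted between the groups. In the controls Insig1 had the highest level, with a mean of 170.4 RPKM (CPM per kilobase), before Cyp51 with 145 RPKM and Msmo1 with 135 RPKM. In siRNA_ANK Cyp51 stood first with 182 RPKM, and Insig1 followed with 140.5 RPKM. Dhcr7 moved from 3.13 to 10.9 RPKM and Idi1 from 8.84 to 24.4 RPKM. Among the exporters Abca1 went from 7.19 to 2.50 RPKM, and Abcg1, the scarcest member in siRNA_ANK, from 2.02 to 0.532 RPKM. Soat1 was at 36.3 RPKM in the controls, where Cyp51, Msmo1, Sc5d and Sqle were the synthesis enzymes above it, and at 19.3 RPKM in siRNA_ANK.

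**Figure D4:**
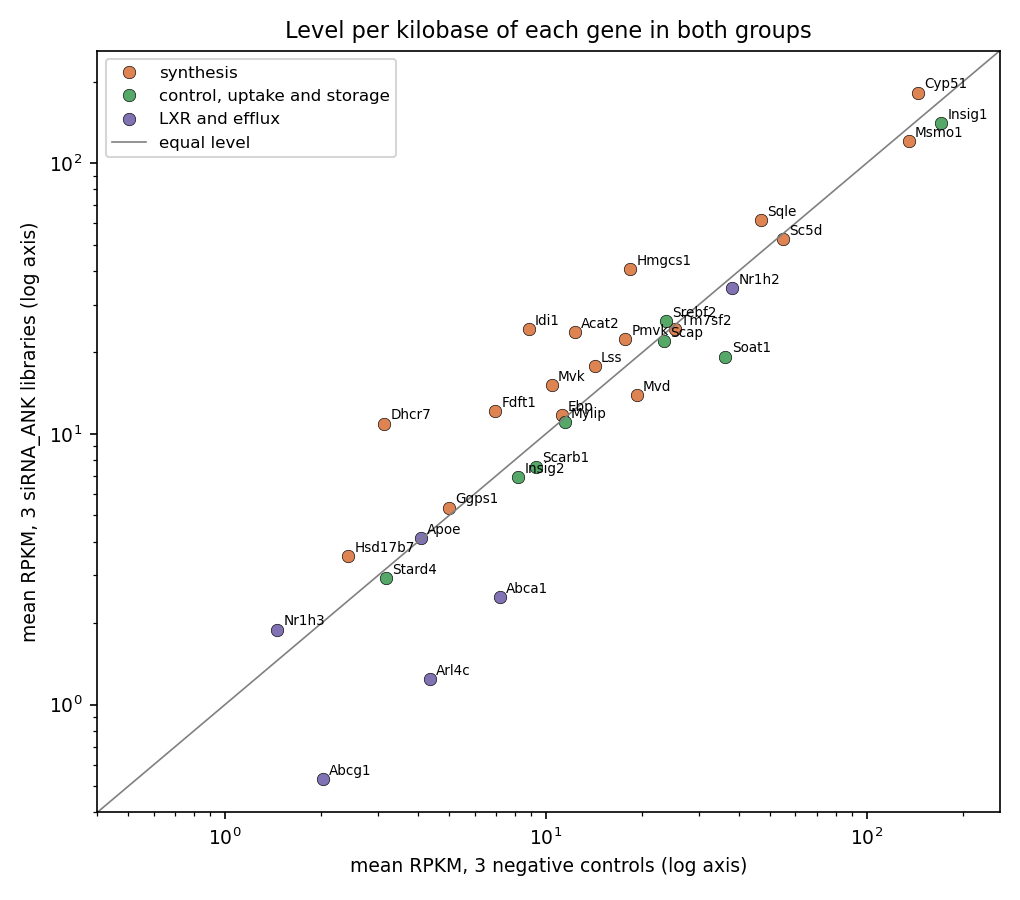
Mean RPKM of each member in the 3 siRNA_ANK libraries against the 3 negative controls, on log axes, coloured by set, with a line of equal level. Dhcr7, Idi1 and Hmgcs1 lie furthest above the line, and Abca1, Arl4c and Abcg1 furthest below it.

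The siRNA_ANK libraries differed among themselves in the synthesis enzymes. For each of the 11 that rose, replicate 2 had the highest and replicate 3 the lowest CPM of the 3 siRNA_ANK libraries. The median of these 11 was also highest in replicate 2 and lowest in replicate 3 of the controls. Against the control mean it stood at -0.01, 0.09 and -0.12 on the log2 scale in control replicates 1 to 3. Over all 2594 genes that rose, replicate 2 was the highest for 50.7% and replicate 3 the lowest for 61%. Ankh was lowest in replicate 2 and highest in replicate 3, at 76.7 and 119.6 CPM, and the part of this in the spread of the enzymes was not tested. Without siRNA_ANK replicate 3 and negative control replicate 2 together, the libraries that an earlier analysis placed nearest to the other group, 11 synthesis enzymes were called higher and 1 lower, and 4 receptor and efflux genes lower.

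Other genes of the pathway were counted in 5 lists, to be read against the 19.9% of all genes tested that rose and the 20.2% that fell. Of 16 tested genes for other sterol and isoprenoid enzymes, 4 rose and 3 fell (median log2 fold change -0.07), shares near those of all genes. The list mixes sterol enzymes with those of other isoprenoid branches, so these shares do not describe the sterol enzymes alone. Acat1, the mitochondrial thiolase, rose 1.46-fold (edgeR adjusted p = 0.000311). Nus1, a subunit of the enzyme that makes dolichol from farnesyl units, fell from 197 ± 9.11 to 119.6 ± 16.7 CPM (edgeR adjusted p = 3.29e-05). Of 11 genes of SREBP processing and sterol-regulated degradation, 1 rose and 3 fell, where 19.9% and 20.2% of all genes did. The protease gene Mbtps1 was 1.13-fold higher, and its call was lost with DESeq2 and without replicate 1 or 3 of the controls or replicate 1 or 2 of siRNA_ANK (adjusted p 7.33e-05 to 0.1304 over the alternatives). The segregase gene Vcp was 1.37-fold lower (edgeR adjusted p = 5.41e-05).

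Of 23 genes that move and store sterol inside cells, 8 fell and 4 rose (median log2 fold change -0.07), where 20.2% and 19.9% of all genes did. Nceh1, which frees cholesterol from its esters, fell from 103 ± 1.52 to 63.4 ± 10.7 CPM (log2 fold change -0.70 ± 0.10, edgeR adjusted p = 0.000168), so that it and Soat1, the opposing enzyme, were both lower. Osbpl11, an oxysterol-binding protein, was 1.43-fold lower and Npc2, which hands cholesterol out of lysosomes, 1.25-fold lower. Scp2, a sterol carrier of peroxisomes, rose 1.63-fold. Among 10 lipoprotein and scavenger receptors and adaptors, 4 rose and 2 fell, where 19.9% and 20.2% of all genes did. Lrp8, a lipoprotein receptor, fell from 39.1 ± 3.55 to 19.2 ± 1.95 CPM (log2 fold change -1.03 ± 0.10, edgeR adjusted p = 1.17e-06). Vldlr, a close relative of Lrp8, was 1.38-fold higher and Sorl1 3.14-fold higher. Lrp1, the most abundant gene of this list, was at 2929 ± 69.4 and 2767 ± 243 CPM and was not called.

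Of 13 LXR partners, other efflux genes and oxysterol enzymes tested, 4 fell and 0 rose (median log2 fold change -0.16), where 20.2% and 19.9% of all genes did. Scd, the stearoyl-CoA desaturase and a known target of both LXR and SREBP, fell from 412 ± 12.7 to 169 ± 5.94 CPM (log2 fold change -1.29 ± 0.05, edgeR adjusted p = 4.90e-10). Abca7, a relative of Abca1, fell from 52.6 ± 5.57 to 27.2 ± 3.42 CPM (edgeR adjusted p = 5.22e-06), and the LXR target Lpcat3 was 1.37-fold lower. In this list 5 genes had too few counts to be tested.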

How the data were processed

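Whole-number counts per gene, 1 file per library, were deposited by the authors without normalization. The tools named are featureCounts 1.5.0-p3 and DESeq2, with the build mRatBN7.2, per the submitters' processing notes. Neither aligner, strand setting nor read filters could be read there (not given in the sources used here). A further 385 loci without a symbol or Ensembl identifier were kept and held 0.306% to 0.339% of the counts.

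Genes were kept by filterByExpr (minimum count 10, total 15), which left 13016. The groups were compared with edgeR 4.0.16 in R 4.3.3 (TMM scaling, robust quasi-likelihood test, two-sided, no covariate), with Benjamini-Hochberg adjustment over all genes tested. The SE is the log2 fold change over the square root of F. RPKM is CPM over the files' gene length. An exact permutation test of 3 against 3 cannot go below 0.1, so none was run. The steps were tested on simulated data with far fewer changed genes than were called here, so that test does not cover scaling or calls at such a share. Replicates of a group differed beyond sampling noise (chi-square per degree of freedom 2.83 to 12.3).

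The members and the gene lists were chosen with earlier results of these data known. The text names the members, Ankh, and of each other list the 3 called genes with the smallest adjusted p and the most abundant gene, except for genes that are not reported here. Alternatives were DESeq2 1.42.0, limma-voom (limma 3.58.1), 2 other scalings, 2 other filters, the replicate number as a block, and leaving out libraries. Motifs were searched in the 250 bases before the start in RefSeq promoter windows.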

Additional observations from a re-analysis of the deposited data

How the results depend on the processing

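Of 18 calls among the members, all 18 were kept with DESeq2, limma-voom, both other scalings, no filter beyond 1 count and the replicate block. With genes under 5 CPM on average left out, 17 were kept, since Abcg1 was not tested there. Whether the replicate numbers pair the samples is not given by the labels. Deviations of same-numbered libraries correlated at -0.03, 0.08 and 0.05 and those of other numbers at -0.10 to 0.06, which does not decide it. With the number as a replicate block, 11 synthesis members were higher and 1 lower, and 3 of the control, uptake and storage set and 3 of the efflux set were lower. Of all genes, 2579 were higher and 2631 lower with this block. Without 1 library at a time, the synthesis members called higher ranged from 9 to 11 and those called lower from 1 to 2, the control, uptake and storage members called higher from 0 to 1 and lower from 2 to 3, the efflux members called lower from 3 to 4, and all genes called higher from 1991 to 2874 and lower from 2062 to 2976. With no filter beyond 1 count, 2 synthesis members were lower, Mvd and Msmo1. Without negative control replicate 2 and siRNA_ANK replicate 3 together, 1 control, uptake and storage member, Srebf2, was higher, and all genes called were 3007 higher and 3049 lower. Genes without a call whose log2 fold change changed sign were Apoe (-0.071 to 0.1224 without 1 library, -0.1005 without the pair above), Ebp (-0.0009 to 0.1522 without 1 library) and Tm7sf2 (-0.1427 to 0.0276 without 1 library, 0.0649 without the pair); the cause was not tested. Depth limits Abcg1, Nr1h3, Arl4c and Hsd17b7 most, with 26 to 165 counts a library.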
